A study of Mus musculus with 10 samples.

Results

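The genes described here encode 10 chromatin remodeler proteins, chosen by name: the BAF subunits Arid1a, Arid1b, Arid2, Smarca2, Smarca4, Smarcc1 and Smarcc2, and the CHD proteins Chd4, Chd7 and Chd8. Their members are the m6A peaks that lay over them in mouse hypothalamic neural progenitor cells. A peak was assigned to a gene if it overlapped the RefSeq span of the gene on GRCm38.p6 by at least 50% of the shorter of both, on the strand whose peaks held more immunoprecipitated (IP) reads. This gave 43 of the 21195 peaks in the list, with at least 1 in each of the 10 genes. All 43 lay wholly inside their gene and were assigned to no other RefSeq gene by this rule. Still, 1 Smarca2 peak and 1 Chd8 peak also overlapped a long noncoding RNA gene. The authors listed 2 gene identifiers for 6 of the 43, those of Arid2, Smarca4 and Chd4. Another 3 peaks on the opposite strand of Smarca2 and Chd8 were left out.

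The cells came from the hypothalamus of Mettl14 f/f mouse embryos at E14.5, so control and knockout cells share the floxed allele. They were grown with FGF2 and EGF and given a lentivirus with EGFP (control) or with EGFP and Cre (Mettl14 knockout), and EGFP-positive cells were sorted after 72 hours. Per the labels there were 4 control and 4 knockout m6A IP libraries and 1 input library of each genotype. The peak table held 1 pooled column of IP reads and 1 of input reads and named no genotype or library, so knockout and control could not be set against each other, no SD could be given and no test between samples was made. Each interval beside a read ratio is an exact Clopper-Pearson 95% interval. It treats the deposited numbers as counts and covers counting error alone, not the spread between libraries or, for summed reads, between peaks. PCR copies of a molecule could not be told apart, so it may be too narrow.

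m6A is a methyl group on adenosine in messenger RNA, written by a complex that contains Mettl14 and bound by reader proteins that influence splicing, translation and decay of the transcript. It is known to lie mostly near stop codons and in long internal exons. BAF complexes use the energy of ATP to move or evict nucleosomes: Smarca2 and Smarca4 are the alternative ATPases, Smarcc1 and Smarcc2 the scaffold of the core, and the Arid proteins are the large subunits that define which form of the complex is made. CHD proteins are remodelers with chromodomains. Subunits of BAF are exchanged as neural progenitors become neurons, and loss of a single copy of several of these genes, among them ARID1B, CHD7 and CHD8, causes disorders of human brain development.

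The start region of Chd8 is printed because it was the start region, among the RefSeq windows matched for 8 of the 10 genes, into which a short peak reached. The window holds 250 bases before and 50 bases after an annotated start (chr14:52257711-52258010, minus strand, RefSeq on GRCm38.p6, written 5′ to 3′ along the gene). Capitals mark the 70 bases that lay in the first Chd8 peak.

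Chd8: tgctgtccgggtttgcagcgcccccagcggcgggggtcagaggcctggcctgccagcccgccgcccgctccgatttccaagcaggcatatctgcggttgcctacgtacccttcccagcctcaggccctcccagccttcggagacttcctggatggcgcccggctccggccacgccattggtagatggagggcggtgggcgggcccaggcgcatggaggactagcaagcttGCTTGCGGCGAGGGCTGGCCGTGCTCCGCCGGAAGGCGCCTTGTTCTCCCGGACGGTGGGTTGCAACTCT

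The letters GGACT, a common form of the m6A sequence context, occurred 1 time on the sense strand of this window, outside the peak, and their reverse complement AGTCC did not occur. The shorter GGAC, which GGACT contains, occurred 2 times on the sense strand, 1 of them within the peak, and 1 time as its reverse complement GTCC. Of all 32851 RefSeq windows of this length, 45.5% held GGACT and 87.7% held GGAC on either strand, so neither sets this window apart. The peak reached 20 bases upstream of the annotated start. The first peaks of Arid1a and Arid1b began 226 and 222 bases downstream of a start, and in the 5 other genes with a window the first peak began 23962 to 46418 bases downstream. A second Arid1a window, at an inner start, fell inside the long first peak of Arid1a. Whether its bases belong to an exon was not analysed here.

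The 10 genes carried many peaks, and these ranged from weak to strong. The number of peaks was 9 in Chd8, 7 in Arid1a and Chd7, 5 in Arid1b and Smarca2, 3 in Arid2, 2 in Smarcc1, Smarcc2 and Chd4, and 1 in Smarca4. A peak was found in 44.2% of protein-coding genes, and in 62.6% of those at least as long as the shortest of the 10. The genes were listed with their peaks known, so nothing is read from their having one. Of the 10 genes 5 had 5 or more peaks, against 4.9% of protein-coding genes with a peak. They are also long, with a median span of 98.1 kb (31.4 to 353 kb), against 17.1 kb over protein-coding genes, and the part of gene length in the number of peaks was not tested.

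Strength is given here as log2 enrichment, the log2 fold change of IP over input that the authors' deposited table lists for each peak. Its median was 2.67 over the 43 peaks (6.38-fold) and 3.06 over all peaks (8.34-fold) in the authors' deposited table. A peak above that overall median was found 15 times among the 43 (34.9%), where the background is 50% by definition. A log2 enrichment of 4 or more was reached by 7 of the 43 peaks (16.3%), against 19.8% of all peaks. These shares are a description of the chosen genes and carry no test. The largest adjusted p among the 43 peaks was 3.79e-05 in the authors' deposited table, and the test behind it is not named there.

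**Figure D1:**
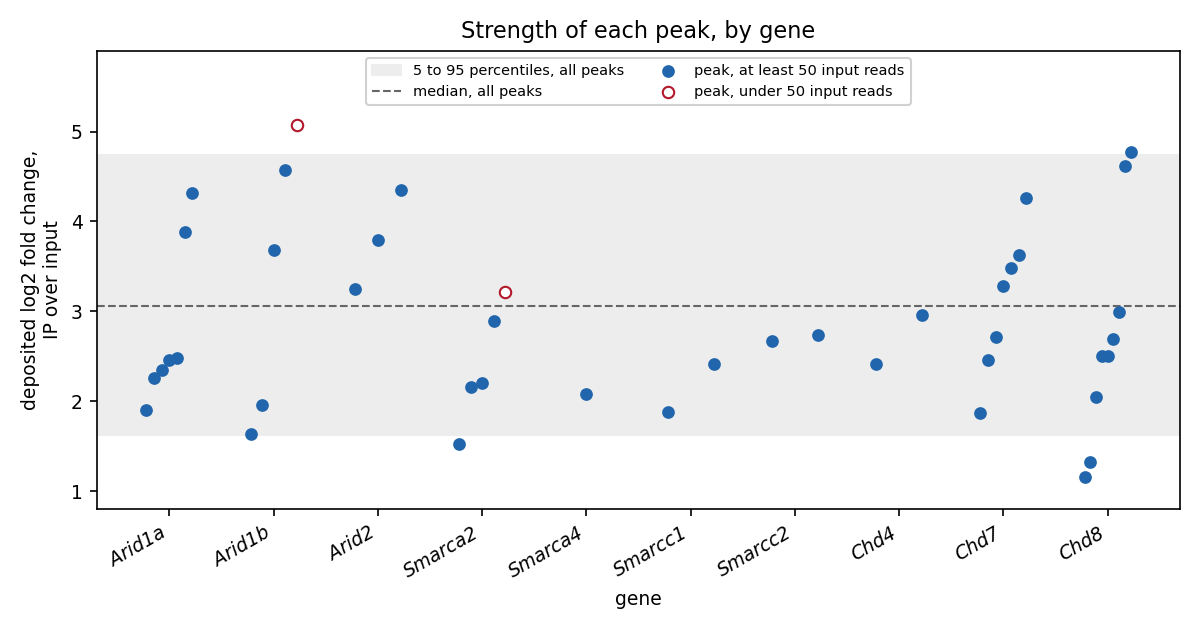
Each point is 1 of the 43 peaks, placed by gene (x axis) and by its log2 enrichment of IP over input in the authors' deposited table (y axis, log2 scale). The grey band runs from the 5 to the 95 percentile of all peaks (1.63 to 4.74), the dashed line is their median of 3.06, and open points mark the peaks of Arid1b and Smarca2 with under 50 input reads; Arid1a, Arid1b, Arid2, Chd7 and Chd8 have points above 4, the other 5 genes do not.

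By their strongest peak the 10 genes fell into 5 above a log2 enrichment of 4 and 5 at 3.21 or below. It lay above the overall median in 6 of the 10, against 66.0% of protein-coding genes with a peak. Of protein-coding genes with a peak, 30.6% reached 4 or more, and of those with 5 or more peaks 60.8% did, so a gene with many peaks more often has a strong one. The order in the authors' deposited table was Arid1b (5.07), Chd8 (4.77), Arid2 (4.35), Arid1a (4.32), Chd7 (4.26), Smarca2 (3.21), Chd4 (2.96), Smarcc2 (2.74), Smarcc1 (2.41) and Smarca4 (2.08). Arid2, Arid1a and Chd7 lay within 0.1 of each other. Without replicates, no pair of neighbours in this order could be shown to differ. The values of Arid1b and Smarca2 rested on 41 and 12 input reads. With peaks of at least 50 input reads, the strongest peaks spanned 4.32 to 4.57 in the Arid genes, 2.08 to 2.89 in the Smarc genes and 2.96 to 4.77 in the CHD genes in the authors' deposited table.

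Each of the 3 Arid genes had a peak of 4 or more, but the strongest peak with at least 50 input reads was that of Chd8. The 15 Arid peaks had 17082 input and 72667 IP reads in all, a ratio of 4.25 (95% interval 4.18 to 4.33), against 2.71 over all peaks of the list. The median read ratio of single peaks was closer, 2.86 against 2.35. Single Arid peaks had ratios from 1.15 to 6.97, a spread that the interval of the sum does not cover. The read ratios are uncorrected for the depth of IP and input, so a value of 1 is not the level without enrichment. No peak of an Arid gene had fewer IP than input reads, nor had any of Smarca4, Smarcc2 or Chd4. Of all peaks, 11.3% did. Of the 15 peaks 8 lay above the overall median, near the background of 50%, and their median log2 enrichment was 3.24 (1.64 to 5.07) against 3.06 over all peaks in the authors' deposited table.

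Arid1a encodes the large DNA-binding subunit of the canonical BAF complex (chr4:133679008-133756769, minus strand). Most of its IP reads (67.0%) were in the peak nearest its 3′ end, chr4:133679858-133685044, which ended 850 bases before the end of the gene. This peak had 4045 input and 24670 IP reads and thus a read ratio of 6.10 (95% interval 5.9 to 6.31), and a log2 enrichment of 4.32 in the authors' deposited table. Directly upstream, across gaps of 25 and 75 bases, lay 2 short peaks of 475 and 100 bases. They had ratios of 2.86 and 1.51 and log2 enrichments of 2.49 and 2.26 in the authors' deposited table, so adjoining stretches of this gene differed in strength.

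In the 5′ part of Arid1a a peak of 32.8 kb began 226 bases from the start of the gene and held 1692 input and 7145 IP reads. Its ratio was 4.22 (95% interval 4.0 to 4.46) and its log2 enrichment 3.88 in the authors' deposited table. Peaks in the list are written as single blocks, so a peak of this length may include introns and does not show which exons were enriched. The remaining 3 peaks formed a group near the middle of the gene, at 43.3% to 46.5% of its span. They were weaker, with ratios of 1.35, 1.42 and 1.15 and log2 enrichments of 2.46, 2.35 and 1.91 in the authors' deposited table.

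Arid1b, the alternative to Arid1a in the same complex, is the longest of the 10 genes (chr17:4994297-5347656, plus strand), and 4 of its 5 peaks lay at 96.7% of its span or beyond. The peak at chr17:5341432-5341531 is only 100 bases long and held 1550 input and 10810 IP reads, 81.1% of the IP reads of the gene. Its ratio of 6.97 (95% interval 6.61 to 7.36) was the highest of the 43 peaks, and its log2 enrichment was 4.57 in the authors' deposited table. At 5.07, the highest log2 enrichment of the 43 in the authors' deposited table belonged to the last Arid1b peak (chr17:5343932-5344656). That peak had 41 input and 185 IP reads, and the interval of its ratio was wide (4.51; 95% interval 3.2 to 6.49).

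The other 2 Arid1b peaks near the 3′ end had 250 and 257 input reads and 1067 and 331 IP reads. Their log2 enrichments were 3.69 and 1.96 in the authors' deposited table. At the 5′ end a peak of 800 bases (chr17:4995296-4996095) had 456 input and 942 IP reads and thus a read ratio of 2.07 (95% interval 1.85 to 2.32), and a log2 enrichment of 1.64 in the authors' deposited table. By deposited strength it was the weakest peak of the gene, and by read ratio it was not, since the peak with 257 input reads had a ratio of 1.29 (95% interval 1.09 to 1.52).

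Arid2 is the ARID subunit of the PBAF form of the complex (chr15:96287522-96405463, plus strand), and each of its 3 peaks lay above the overall median. The strongest was not the one nearest the 3′ end. It covered 71.0% to 77.5% of the span (chr15:96371271-96378946), with 2746 input and 13282 IP reads and thus a read ratio of 4.84 (95% interval 4.64 to 5.04) and a log2 enrichment of 4.35 in the authors' deposited table. The peak just upstream, across 600 bases, had 1786 input and 4130 IP reads and a value of 3.24 in the authors' deposited table. The peak toward the 3′ end spanned 10307 bases, with 1573 input and 5122 IP reads and a value of 3.80 in the authors' deposited table.

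As a group, the ATPases and core subunits had a lower summed read ratio and median log2 enrichment than the Arid and the CHD genes. This did not hold for each gene. By the median over the peaks of a gene, Smarcc2 (2.70) was above Chd8 (2.51) and Arid1a (2.46) in the authors' deposited table. The 10 peaks of Smarca2, Smarca4, Smarcc1 and Smarcc2 had 10189 input and 11458 IP reads and thus a read ratio of 1.12 (95% interval 1.09 to 1.16), and their median log2 enrichment was 2.31 (1.52 to 3.21) in the authors' deposited table. Only 1 of them, with 12 input reads, lay above the overall median. The difference from the Arid genes was not tested, as there is 1 pooled value for each peak.

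Smarca4, the main ATPase of the BAF complex in neural progenitors, had 1 peak in its 88.1 kb (chr9:21642472-21647639), at 32.9% of the span. It was well covered, with 3043 input and 3382 IP reads and thus a read ratio of 1.11 (95% interval 1.06 to 1.17), and had a log2 enrichment of 2.08 in the authors' deposited table. No peak lay in its last 10%. The paralog Smarca2 had 5 peaks with log2 enrichments of 2.16, 3.21, 1.52, 2.89 and 2.20 from 5′ to 3′ in the authors' deposited table. Its read ratios, in the same order, were 1.07, 2.75, 0.643, 1.96 and 1.25, and the second of them had a 95% interval from 1.38 to 5.85. The best supported of the stronger Smarca2 peaks was the fourth (chr19:26751037-26753686), with 555 input and 1088 IP reads.

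The scaffold genes Smarcc1 and Smarcc2 had 2 peaks each. In Smarcc1 neither lay near an end of the gene: they had 1129 and 2738 input reads, 794 and 2783 IP reads, and ratios of 0.703 (95% interval 0.641 to 0.771) and 1.02 (95% interval 0.964 to 1.07). Their log2 enrichments were 1.88 and 2.41 in the authors' deposited table. In Smarcc2 both lay between 76.5% and 96.4% of the span, with ratios of 2.00 (95% interval 1.74 to 2.31) and 1.88 (95% interval 1.65 to 2.14) and log2 enrichments of 2.74 and 2.67, from the authors' deposited table. The ratio intervals of both Smarcc2 peaks lay above those of both Smarcc1 peaks. They hold no spread between libraries, so this does not show that the genes differ.

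Set side by side, Arid1a had more peaks than Arid1b, Smarca2 more than Smarca4, and Smarcc1 and Smarcc2 had the same number. Arid1b exceeded Arid1a by 0.75 in its strongest log2 enrichment as the authors' deposited table lists it, Smarca2 exceeded Smarca4 by 1.14 and Smarcc2 exceeded Smarcc1 by 0.33. The size of each gap depended on the measure. From the authors' deposited table, the Arid1b gap was 0.26 with peaks of at least 50 input reads, and with the median over the peaks of a gene the Smarca2 gap was 0.13. The ratio of summed reads was 5.22 (95% interval 5.0 to 5.45) for Arid1b and 4.37 (95% interval 4.27 to 4.47) for Arid1a. For Smarca2 and Smarca4 it was 1.23 (95% interval 1.17 to 1.29) and 1.11 (95% interval 1.06 to 1.17), and these intervals overlapped. As such intervals hold no spread between libraries, neither overlap nor its absence shows whether genes differ.

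The CHD genes were divided. Chd7 and Chd8 had 16 peaks and strong ones among them, while Chd4, the ATPase of the NuRD repressor complex, had 2. The first Chd4 peak (chr6:125122259-125122946) had 1834 input and 3202 IP reads and thus a read ratio of 1.75 (95% interval 1.65 to 1.85) and a log2 enrichment of 2.42 in the authors' deposited table. The second (chr6:125130348-125130591) ended at the last base of the gene, with 197 input and 397 IP reads and a value of 2.96 in the authors' deposited table. Neither lay above the overall median.

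Chd7, a remodeler of enhancers that is mutated in CHARGE syndrome, had 7 peaks (chr4:8690402-8868449, plus strand). The strongest, chr4:8862669-8867148, lay at 98.0% of the span and held 2546 input and 13293 IP reads and thus a read ratio of 5.22 (95% interval 5.0 to 5.45) and a log2 enrichment of 4.26 in the authors' deposited table. The peak before it had 1926 input and 7137 IP reads and a value of 3.63 in the authors' deposited table. The last peak, 325 bases further on, had fewer IP than input reads (183 and 244) and still a value of 2.45 in the authors' deposited table. Next to the peak with the second highest IP count of the 43 thus stood one with a ratio of 0.75 (95% interval 0.616 to 0.912).

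Further upstream in Chd7, near 35% of the span, a peak of 925 bases had 725 input and 3238 IP reads and thus a read ratio of 4.47 (95% interval 4.12 to 4.85). Its log2 enrichment was 3.49 in the authors' deposited table. A peak of 425 bases before it, with almost the same number of input reads (724), had 1343 IP reads and thus a read ratio of 1.85 (95% interval 1.69 to 2.03), and a value of 2.72 in the authors' deposited table. The longest of the 43 peaks (49430 bases) followed, with 931 input and 2387 IP reads and a value of 3.28 in the authors' deposited table. The remaining Chd7 peak had 312 input and 295 IP reads and a value of 1.86 in the authors' deposited table.

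Chd8, a remodeler that binds many active promoters and is recurrently mutated in autism, had the most peaks and the widest range, from 1.16 to 4.77 in the authors' deposited table (chr14:52198151-52258042, minus strand). Its strongest peak was internal, at 38.1% to 50.8% of the span (chr14:52227609-52235250), with 467 input and 3045 IP reads and thus a read ratio of 6.52 (95% interval 5.91 to 7.20). A peak of 75 bases that lay 125 bases upstream of it had 1330 input and 1966 IP reads and thus a read ratio of 1.48 (95% interval 1.38 to 1.59), and a log2 enrichment of 2.51 in the authors' deposited table. Whether reads of so short a peak were counted over the interval as written is not stated.

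Near the 3′ end of Chd8 a peak of 813 bases (chr14:52199026-52199838) had 1258 input and 7285 IP reads and thus a read ratio of 5.79 (95% interval 5.45 to 6.15) and a log2 enrichment of 4.61 in the authors' deposited table. The final peak followed it after 125 bases and ran to the last base of the gene. It had 1884 input and 1550 IP reads and thus a read ratio of 0.823 (95% interval 0.769 to 0.880), and a value of 1.32 in the authors' deposited table. The ratio intervals of these neighbours were far apart, though they cover counting error alone. The 3 peaks just upstream in this 3′ group had ratios of 1.08, 1.08 and 0.725 and log2 enrichments of 3.0, 2.69 and 1.16, from the authors' deposited table. The remaining internal peak spanned 17504 bases, with 401 input and 375 IP reads. Peaks on the opposite strand overlapped the last 5 Chd8 peaks and the last Smarca2 peak. Whether the libraries kept the strand of the RNA is not stated, so reads of both strands may not be separable there.

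The first peak of Chd8, whose bases are printed above, had 905 input and 3655 IP reads in 223 bases (chr14:52257558-52257780). Its ratio was 4.04 (95% interval 3.75 to 4.35), close to that of the long 5′ peak of Arid1a, while its log2 enrichment of 2.51 in the authors' deposited table was far below the 3.88 given there for Arid1a.

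Peaks were most frequent toward the 3′ end, as in the list as a whole. Of the 43 peaks 18 (41.9%) had their midpoint in the last 10% of the gene span, against 36.9% of peaks assigned to protein-coding genes, and 2 (4.65%) in the first 10%, against 9.35%. The 18 peaks held 57.3% of the IP reads of the 43 and 42.2% of their input reads. Their median log2 enrichment was 2.98 (1.32 to 5.07) in the authors' deposited table, and that of the 23 peaks between both ends was 2.46 (1.16 to 4.77). In all protein-coding genes the order in the authors' deposited table was the other way round, 2.99 in the last 10% and 3.17 between. Neither difference was tested. The strongest peak lay in the last 10% in 4 of the 10 genes, Arid1a, Arid1b, Chd4 and Chd7, against 40.9% of protein-coding genes with a peak. No peak lay there in Smarca4 or Smarcc1.

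**Figure D2:**
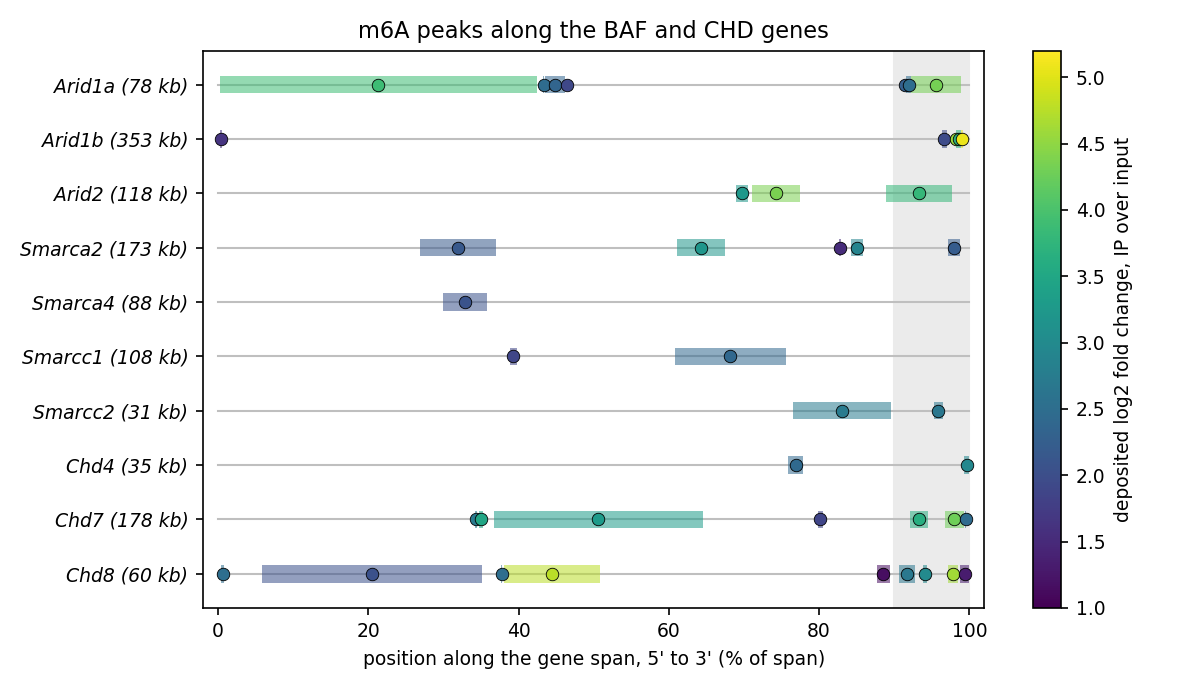
The 43 peaks along the 10 genes, drawn as a percentage of each gene span from the 5′ to the 3′ end (x axis), with the span of each gene in kb beside its name. Bars show each peak to scale, circles its midpoint, colour the log2 enrichment of IP over input in the authors' deposited table, and the grey zone the last 10% of the span, which holds 18 of the 43 midpoints.

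Some peaks of a gene stood close together. Of 33 pairs of consecutive peaks 6 (18.2%) were separated by at most 150 bases, against 26.6% of such pairs in all protein-coding genes. They lay in Arid1a (3 pairs), Chd8 (2) and Arid1b (1). Read density changed abruptly at some of these borders, also in the input. The 100-base peak of Arid1b held 1550 input reads per 100 bases, and its neighbour 25 bases away 12.3 per 100 bases, a 126-fold difference. The largest difference, 290-fold, was in Chd8, between its 75-base peak (1773 per 100 bases) and its strongest peak (6.11 per 100 bases). Over the 6 pairs the median difference in input density was 4.12-fold, and over all such pairs of protein-coding genes 4.54-fold, where 13.9% of them, and 33.3% of the 6, were over 50-fold. Introns inside a peak lower its density, and their part in these differences was not tested. Whether reads of such short peaks were counted over the interval as written is not stated. The read ratio of the 100-base Arid1b peak, the highest of the 43, carries that limit, as does the contrast between the 2 Chd8 peaks. Reads per base were therefore not compared between genes.

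The deposited log2 enrichment and the read ratio ordered the peaks similarly but not identically. Across the 43 peaks, which share the pooled libraries, Spearman's correlation between both was 0.866. Both measures picked the same strongest peak in 9 of the 10 genes, all but Arid1b. Among the 9 is Smarca4, which has 1 peak and could not differ. The log2 enrichment exceeded the log2 read ratio (pseudocount 0.5) by a median of 1.88, as in the whole list (1.88). The smallest excess belonged to the peaks at the 5′ ends of Chd8 (0.49) and Arid1b (0.59), with 0.97 or more in the other 41. An excess as small as these was found in 1.77% of all peaks, and in 9.80% of the peaks in the first 10% of protein-coding genes. The median excess was 1.71 in that first 10%, 1.91 between and 1.87 in the last 10%. The largest excess, 2.91, was that of the Arid1b peak with 41 input reads.

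**Figure D3:**
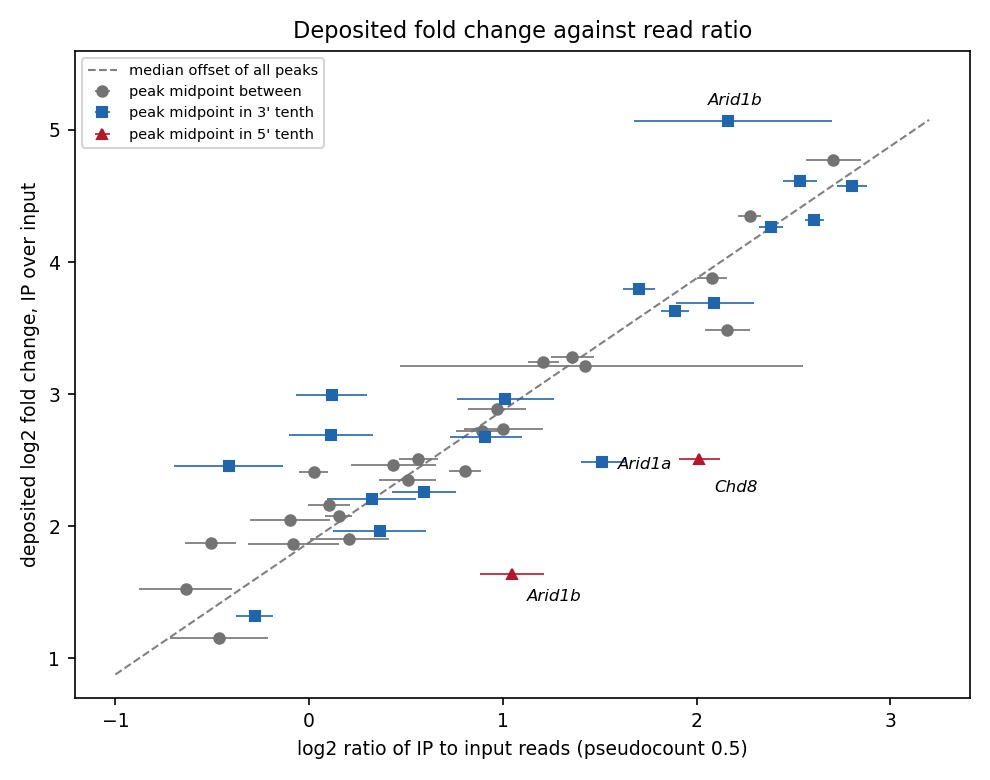
Each of the 43 peaks by the log2 ratio of IP to input reads (x axis, with exact 95% counting intervals as bars) and by the log2 enrichment in the authors' deposited table (y axis, log2 scale); the dashed line marks the median offset of all peaks, 1.88. The 2 peaks in the first 10% of their gene (triangles, Chd8 and Arid1b) lie below the line, with offsets of 0.49 and 0.59, and the last Arid1b peak lies above it.

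Fewer IP than input reads were counted in 7 of the 43 peaks (16.3%), against 11.3% of all peaks. They were 3 of Chd8, 2 of Chd7, and 1 each of Smarca2 and Smarcc1, and their log2 enrichments ran from 1.16 to 2.45 in the authors' deposited table. Peaks over 10000 bases numbered 7 of 43 (16.3%), against 13.0% of all peaks.

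Of 23 further subunits of BAF, PBAF and ncBAF, 15 had a peak (65.2%, against 44.2% of protein-coding genes), with a median log2 enrichment of 3.42 for the strongest peak of a gene, from the authors' deposited table. Computed likewise from the authors' deposited table, that median was 3.74 for the 10 genes and 3.51 for all protein-coding genes with a peak. The highest were Bcl11b (5.39, on 29 input reads), a zinc finger subunit, and Bicral and Bicra (4.47 and 4.28), alternative subunits of ncBAF, in the authors' deposited table. The 8 subunits without a peak were the actin-like Actl6a and Actl6b, Dpf1, Dpf2, Smarcb1, Smarcd1, Smarcd2 and Ss18l1. Which of these genes the cells express was unknown, so a gene without a peak may be silent.

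In the rest of the CHD family 4 of 7 genes (57.1%) had a peak. The share was 44.2% of protein-coding genes and 62.6% of those at least as long as Smarcc2. Each of the 4 with a peak had one of 4 or more, against 30.6% of protein-coding genes with a peak. Chd9, Chd1 and Chd2 had the highest, 4.79, 4.54 and 4.42, and Chd6, named after its value was seen, had 4.23 in the authors' deposited table. Chd1l, Chd3 and Chd5 had none. The genes were also grouped by the known subfamilies, a grouping made after the values were seen. All 4 genes from Chd6 to Chd9 had a strongest peak between 4.23 and 4.79 in the authors' deposited table, with 28 peaks in all. Each of these 4 genes had 5 or more peaks. Of protein-coding genes with 5 or more peaks, 60.8% had one of 4 or more. Of Chd3, Chd4 and Chd5, the NuRD ATPases, Chd4 alone had peaks. Of 12 NuRD partners of Chd4 6 had a peak, 1 each, and the highest were Hdac2 (5.29, on 20 input reads), Gatad2a (3.43) and Gatad2b (3.10) in the authors' deposited table. The 6 without were Cdk2ap1, Hdac1, Mbd2, Mta2, Rbbp4 and Rbbp7.

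The ISWI and INO80 groups, remodelers of other families, had a peak in 10 of 11 and 9 of 10 genes, against 44.2% of protein-coding genes and 62.6% of those at least as long as the shortest of the 10. Among ISWI genes Rsf1, Cecr2 and Chrac1 were highest, at 4.70, 4.39 and 3.98 in the authors' deposited table, and Smarca1 had no peak. In the INO80, SRCAP and SNF2 list Hells, Smarcad1 and Srcap were highest, at 5.38, 4.61 and 4.42 in the authors' deposited table, and Ruvbl1 had none.

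Beside 3 lists of chromatin genes that are not remodelers, the 10 had a lower median over single peaks than 2. Median spans were shorter in these lists, 34.5 kb (Kmt2 and Setd1), 41.0 kb (Polycomb and Asxl) and 65.9 kb (acetyltransferases), against 98.1 kb. The 37 peaks of the 6 Kmt2 and Setd1 methyltransferase genes had a median log2 enrichment of 3.05, and the 31 peaks of Polycomb and Asxl genes 3.35, in the authors' deposited table. For the 25 peaks of CBP, p300 and other acetyltransferases the authors' deposited table gave 2.34. All remodeler lists described above were higher than the 10 genes (2.67) by this measure. Their medians were 2.99 (other BAF subunits), 3.73 (other CHD genes), 2.90 (NuRD partners), 2.97 (ISWI) and 3.17 (INO80, SRCAP and SNF2) in the authors' deposited table. By the strongest peak of each gene the order was different, with medians from the authors' deposited table of 3.74 for the 10 genes, 3.72 for Polycomb and Asxl, 3.62 for Kmt2 and Setd1 and 2.61 for the acetyltransferases. These maxima were taken over unlike numbers of peaks. In the same order, the median number per gene with a peak was 4, 1, 5.5 and 3. The 10 genes were not highest among the remodeler lists. There the median strongest peak was 4.48 for the other CHD genes and 4.23 for INO80, SRCAP and SNF2 in the authors' deposited table. It was 3.61 for ISWI, 3.42 for other BAF subunits and 2.90 for NuRD partners. The highest strongest peaks were those of Kmt2c (4.59), Kmt2d (3.74) and Setd1b (3.66), of Asxl3 (5.07), Suz12 (4.67) and Asxl2 (4.43), and of Kat6a (4.83), Kat6b (4.17) and Ep300 (2.90) in the authors' deposited table. Kat2b and Kat7 had no peak, nor had Ezh1. A strongest peak of 4 or more was found in 5 of the 10 BAF and CHD genes, 1 of the 6 Kmt2 and Setd1 genes, 2 of 7 acetyltransferase genes with a peak and 5 of 16 Polycomb and Asxl genes with a peak, against 30.6% of protein-coding genes with a peak and 60.8% of those with 5 or more.

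**Figure D4:**
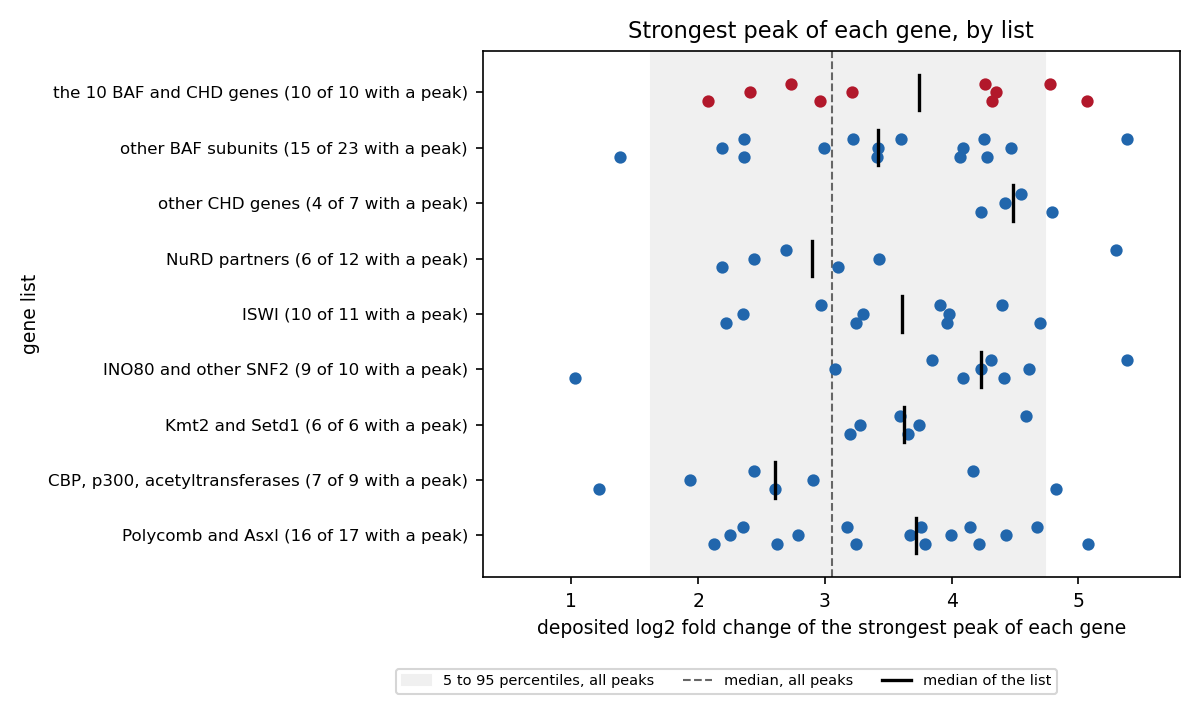
Each point is the strongest peak of 1 gene, by its log2 enrichment of IP over input in the authors' deposited table (x axis, log2 scale), grouped by gene list (y axis), with the median of the list as a black bar. The dashed line and grey band are the median (3.06) and the 5 to 95 percentiles (1.63 to 4.74) of all peaks; the 10 BAF and CHD genes (top) lie on both sides of the line, and the 4 further CHD genes with a peak lie above 4.

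Of 8 neural progenitor markers 5 had a peak (Sox2, Nes, Pax6, Notch1 and Hes1), and Vim, Fabp7 and Hes5 had none. Of 6 hypothalamic factors Nkx2-1, Six3 and Tbx3 had a peak, and Rax, Otp and Fezf1 had none. Markers of neurons (Tubb3, Rbfox3 and Map2, not Dcx, Stmn2 or Snap25) and of the oligodendrocyte lineage (Olig1, Olig2, Pdgfra and Cspg4, not Sox10) also had peaks. Their summed input reads at peaks were 35534 and 158561, of which 35021 lay in Map2, and 110010 and 43210 in Olig1 and Olig2. The sum was 3797 for the progenitor markers and 29160 for the hypothalamic factors. Markers without a peak add nothing, so these sums do not measure how much RNA came from each cell type. Of the microglial and blood markers (Aif1, Cx3cr1, C1qa, Ptprc and Hbb-bs) and the vascular and mesenchymal markers (Pecam1, Cldn5, Col1a1 and Pdgfrb), none had a peak. A marker without a peak has no value in these files, so its level is unknown. How far cells of these lineages contributed to the peaks described here was not tested.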

How the data were processed

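Per the labels, polyadenylated RNA was fragmented and enriched with an m6A antibody, and 10 libraries were made. The authors deposited a peak table and a matching interval list. Tools in the submitters' processing notes are STAR 2.5.2a, Trimmomatic 0.32 and bcl2fastq 2.17.1.14, and the mouse build is GRCm38.p6. Which program called the peaks or counted the reads is not stated. Per the file headers, the authors' counts fill 1 input and 1 IP column of whole numbers. Their pooling (sums or rounded means) is unknown, so no count model was run beyond the Clopper-Pearson intervals. Those intervals take the numbers as sums of reads and do not hold for rounded means. The log2 fold changes that the authors deposited were read as IP over input, and the deposited p-values as belonging to them, both with normalization and test unstated. The deposited score was not used.

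Depth over all peaks was 26.6 M input and 72.3 M IP reads (M, mega), and that of single libraries is unknown. Genes were RefSeq spans without exons. The rule for assigning peaks to genes was applied to every protein-coding gene for comparison, where a peak can count for more than 1 gene, and it was tested on simulated intervals. The strand it chose was that of the RefSeq promoter table in 8 of 8 of the genes listed there (94.1% of 7762 protein-coding genes). Lists were described by counts and medians, without tests. Named genes were all 10 members, in each list the 3 with the highest strongest peak and the genes without a peak where 10 or fewer, and all cell type markers. The genes and lists were chosen with earlier results of these data known. Python 3.11.15, pandas 2.3.3, scipy 1.17.1 and matplotlib 3.10.9 were used. A planned edgeR test of knockout against control was not run, since no column belonged to a library.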

Additional observations from a re-analysis of the deposited data

Results flagged for a closer look

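The values of 3 peaks on the strand opposite to the gene stood outside the comparisons above. In Chd8 a peak of 15420 bases (chr14:52197502-52212921, plus strand) had 68 input and 254 IP reads and thus a read ratio of 3.74 (95% interval 2.85 to 4.96). A peak of 325 bases (chr14:52213522-52213846) had 10823 input and 8492 IP reads and thus a read ratio of 0.785 (95% interval 0.763 to 0.807). The latter held more input reads than any Chd8 peak on the gene's own strand. Both overlapped the long noncoding RNA gene Gm26590, and the longer one also Snord8. In Smarca2 a peak on the minus strand (chr19:26768976-26775948) had 1036 input and 980 IP reads and thus a read ratio of 0.946 (95% interval 0.866 to 1.03), and overlapped the long noncoding RNA gene 4931403E22Rik. Their log2 fold changes were 4.05, 2.24 and 1.72 in the authors' deposited table.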

How the results depend on the processing

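A count was called the same within 1.5 times its reported value, and a log2 value only if equal to 2 decimals. By these limits 13 of 25 alternative values were the same and 12 moved. The 43 peaks were the same number with any overlap, with peaks wholly inside the gene and with peaks assigned to a single RefSeq gene. That last setting counted genes after 1 strand per gene was kept. It thus left in 1 Smarca2 peak and 1 Chd8 peak that overlap the long noncoding RNA genes 4931403E22Rik and Gm26590. They were 46 with both strands, 34 at an adjusted p under 1e-10 and a log2 fold change of at least 2, and 41 with at least 50 input reads. The median log2 fold change of 2.67 from the authors' deposited table moved to 2.74 with centred log2 read ratios, 3.74 over the strongest peak of each gene and 2.51 with at least 50 input reads. Over single peaks the 10 genes were below all peaks (3.06), but over strongest peaks they were above all protein-coding genes (3.51). The strongest peak lay above the median of all peaks in 6 genes, and the median peak in 3. The gaps between paralogs are also from the authors' deposited table unless read ratios are named. That of Arid1b over Arid1a, 0.75, became 0.19 with log2 read ratios, 0.26 with at least 50 input reads and 1.23 with the median over the peaks of a gene, an alternative added after the data were seen. In this order the Smarca2 gap of 1.14 became 1.27, 0.81 and 0.13. The Smarcc2 gap of 0.33 became 0.98 with log2 read ratios and 0.56 with medians. The cause was not tested, except that fewer peaks enter with a read minimum. No paired analysis was possible because no column belonged to a library, and leaving out replicates was not run for the same reason. Ratios of peaks with 12 and 41 input reads are limited by depth.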
